A study of Homo sapiens with 8 samples.

Results

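Convergent gene pairs are neighbours on opposite strands that are transcribed towards each other. In the pairs described here the 3' ends of the listed gene spans overlap, so that the 2 strands of one stretch of DNA both belong to a gene. They were found from the chromosome, start, end and strand listed for WT replicate 1: a plus-strand and a minus-strand gene on chromosomes 1 to 22, with the minus-strand gene starting inside the plus-strand gene and ending beyond it. This gave 663 pairs made of 1315 genes, or 7.10% of the 18517 genes listed on these chromosomes, and 11 genes stood in 2 pairs. The rule used positions only. The transcript listed for a gene can differ between libraries, and whether reads entered that choice was not tested.

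RNAs copied from both strands of such an overlap are complementary and can pair into double-stranded RNA. ADAR, an enzyme that edits adenosine to inosine in double-stranded RNA, has one form with a domain that binds nucleic acid in the left-handed Z form. RNA polymerase usually runs past the polyadenylation site before it stops, so convergent neighbours can be transcribed into each other.

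The study measured newly made RNA by TT-seq in U2OS, a human osteosarcoma cell line, by labelling RNA with 4-SU, a uridine analogue taken up during transcription. It has 4 groups of 2 libraries, named here WT, Zab, MYC and MYC_Zab. The genotype labels are WT, Zab, MYC O/E (overexpression of MYC) and Zab + MYC O/E. The title places MYC, the chromatin factor FACT and Z-DNA together. The series calls Zab Zαβ, the name of the Z-nucleic-acid-binding domains of ADAR. The labels used here give neither the construct, its promoter nor the number of clones. No treatment other than 4-SU is named, and whether the 2 libraries of a group are separate cultures is not stated. A p-value here therefore covers variation between libraries that is possibly only technical.

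Levels are given as CPM, reads relative to library size after scaling by TMM, a method that assumes most genes do not differ. ADAR had 33914 and 33898 CPM under the WT label, 519 and 567 under Zab, 445 and 464 under MYC and 32282 and 32341 under MYC_Zab, and MYC, the transcription factor, had 776 and 752 CPM under the WT label, 917 and 1015 under Zab, 6578 and 6606 under MYC and 752 and 772 under MYC_Zab. The libraries labelled MYC_Zab thus had MYC at the level of those labelled WT, although they are labelled as MYC overexpression, and groups are named below by label only. ADAR took 3.42 to 3.51% of coding reads in the libraries labelled WT and MYC_Zab and 0.0444 to 0.0516% in those labelled Zab and MYC, so that the WT label also goes with the high level. Reads counted per gene cannot tell RNA of the cell's own ADAR gene from RNA of a construct with ADAR sequence. ADAR-high and ADAR-low therefore name a level of reads and not of the enzyme. Only the libraries labelled MYC had high MYC, and no library had both MYC and ADAR high, as the label Zab + MYC O/E might lead one to look for. Labels may have been exchanged between libraries, which was not tested, and every value over WT below means over the libraries so labelled. ADAR-high over ADAR-low is the mean of the first 2 groups minus the mean of the other 2, on the log2 scale. It equals the interaction of the 2 labels divided by 2, and the ADAR level and the genotype labels cannot be told apart in it.

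The libraries held 1839960 to 4072059 reads in coding genes, with the fewest in Zab, where 6.44 and 6.66 coding reads per 100 tags were counted against 13.1 to 13.8 in the other libraries. Of 10 mesenchymal and bone markers, 7 passed 5 CPM in some library. All 10 summed to 3846 CPM under WT, 4503 under Zab, 2466 under MYC and 3638 under MYC_Zab. Most of this was VIM, with 2433, 3067, 1817 and 2177 CPM in that order. RUNX2 was highest under MYC (8.62, 3.41, 31.4 and 11.5 CPM in that order). The other markers that passed 5 CPM were lowest under MYC. TWIST1 was at 0, and COL1A2 and ALPL stayed under 5 CPM. FN1, fibronectin, averaged 415 CPM under WT, 513 under Zab, 60.8 under MYC and 421 under MYC_Zab. No blood or endothelial marker, 1 of 4 epithelial and 2 of 3 neural markers passed 5 CPM. The neural markers summed to 21.8 CPM under WT, 10.1 under Zab, 3.29 under MYC and 23.2 under MYC_Zab, mostly from SYP (17.1, 5.04, 0.764 and 19.5), so they were higher in the ADAR-high libraries, and GFAP was at 0 outside Zab. The part of these differences in the results below was not tested.

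The annotated promoters of 2 pairs are given as sequence. Their starts are those of RefSeq, were not measured here and need not be those of the listed transcripts. Among pairs with both partners called and averaging at least 5 CPM, ranked by the smaller of the 2 changes, DNAH11/CDCA7L led those with opposite changes between ADAR-high and ADAR-low libraries and BMP6/TXNDC5 those that fell together. Each line gives the 250 bases before the start of the gene, from RefSeq on GRCh38.p14, 5' to 3' on the gene's own strand. Capitals mark CGCGCG, an alternating run of the kind that can take up the Z form. CACGTG, the E-box bound by MYC, would also be in capitals but was not in these windows.
DNAH11 promoter, chr7:21542789-21543038, plus strand: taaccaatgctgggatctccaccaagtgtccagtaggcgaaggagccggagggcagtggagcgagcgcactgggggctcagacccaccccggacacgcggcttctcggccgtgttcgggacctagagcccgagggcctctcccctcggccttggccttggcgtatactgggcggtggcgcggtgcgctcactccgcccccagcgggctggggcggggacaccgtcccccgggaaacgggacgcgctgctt
CDCA7L promoter, chr7:21945900-21946149, minus strand: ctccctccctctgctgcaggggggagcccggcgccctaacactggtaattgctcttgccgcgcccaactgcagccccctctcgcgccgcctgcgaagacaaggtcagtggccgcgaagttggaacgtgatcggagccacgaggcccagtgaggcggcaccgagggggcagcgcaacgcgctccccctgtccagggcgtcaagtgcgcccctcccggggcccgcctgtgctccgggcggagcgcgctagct
BMP6 promoter, chr6:7725849-7726098, plus strand: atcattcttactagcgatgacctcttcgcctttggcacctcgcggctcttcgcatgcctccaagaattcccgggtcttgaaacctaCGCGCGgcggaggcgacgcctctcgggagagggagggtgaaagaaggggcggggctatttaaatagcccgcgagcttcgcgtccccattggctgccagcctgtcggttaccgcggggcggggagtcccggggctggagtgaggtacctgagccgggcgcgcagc
TXNDC5 promoter, chr6:7910789-7911038, minus strand: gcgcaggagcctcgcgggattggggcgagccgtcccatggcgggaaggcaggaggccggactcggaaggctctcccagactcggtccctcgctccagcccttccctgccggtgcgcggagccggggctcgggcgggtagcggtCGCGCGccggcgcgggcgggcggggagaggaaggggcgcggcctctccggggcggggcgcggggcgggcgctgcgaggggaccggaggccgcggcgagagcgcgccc
The BMP6 and TXNDC5 windows each held 1 CGCGCG and the DNAH11 and CDCA7L windows none. Overlapping matches were counted too, and both palindromes read alike on both strands. GCGCGC, the same alternation begun with G, was not searched for or marked, and it occurs in the CDCA7L, BMP6 and TXNDC5 windows. Over all 27305 promoters of the RefSeq table, 14% held CGCGCG and 6.49% held CACGTG. A match is a run of letters and not a measured binding site.

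The overlaps ran from 1 to 435203 bp with a median of 474 bp, and took a median of 3.87% of the shorter gene's span. There were 185 pairs with under 100 bp of overlap, 229 from there to just under 1 kb and 249 with 1 kb or more, of which 21 reached 10 kb. Chromosome 1 held 62 pairs, chromosome 17 held 61, chromosome 16 held 53 and chromosome 11 held 52. The deposited listings name 1 transcript per gene, which can differ between libraries: 602 pairs overlapped in all 8 listings and 6 in 1 listing only.

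At the edge of the rule, SGSM3/MRTFA, SPTAN1/WDR34 and TOMM6/USP49 shared 1 bp. Outside it, ITPKC/C19orf54 and MIA3/AIDA abutted with no base between them and C5orf58/LCP2 were 1 bp apart. SPTAN1, which encodes a spectrin chain, had 205 and 219.9 CPM under the WT label, 210.4 and 246 under Zab, 212 and 213 under MYC and 195 and 215 under MYC_Zab. MIA3, which encodes a protein that helps load collagen for export, had 57.4 and 58.3 CPM under the WT label, 27.7 and 30.4 under Zab, 42.9 and 35.4 under MYC and 68.3 and 73.5 under MYC_Zab. These values are given as a description of the edge.

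At the other end, the 2 longest overlaps, NBPF20/NBPF19 and NBPF10/NBPF19, lie in a family of near-identical copies, and the reads of its members are uncertain. Next came MGST2/MAML3 with 23993 bp, which overlapped in 3 of 8 listings, PHACTR1/TBC1D7-LOC100130357 with 23926 bp and TEX9/MNS1 with 17273 bp. MAML3, a coactivator of Notch signalling, had 25.9 and 25 CPM under the WT label, 28.3 and 21.5 under Zab, 10.3 and 17.3 under MYC and 22.8 and 22.3 under MYC_Zab. TEX9, its span crossing that of MNS1 on chromosome 15 (hg19 chr15:56720923-56738195), had 5.83 and 6.08 CPM under the WT label, 1.18 and 1.05 under Zab, 2.84 and 3.71 under MYC and 7.27 and 7.69 under MYC_Zab. TEX9 was low in both Zab libraries and its MYC libraries lay between those and the other groups.

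**Figure D1:**
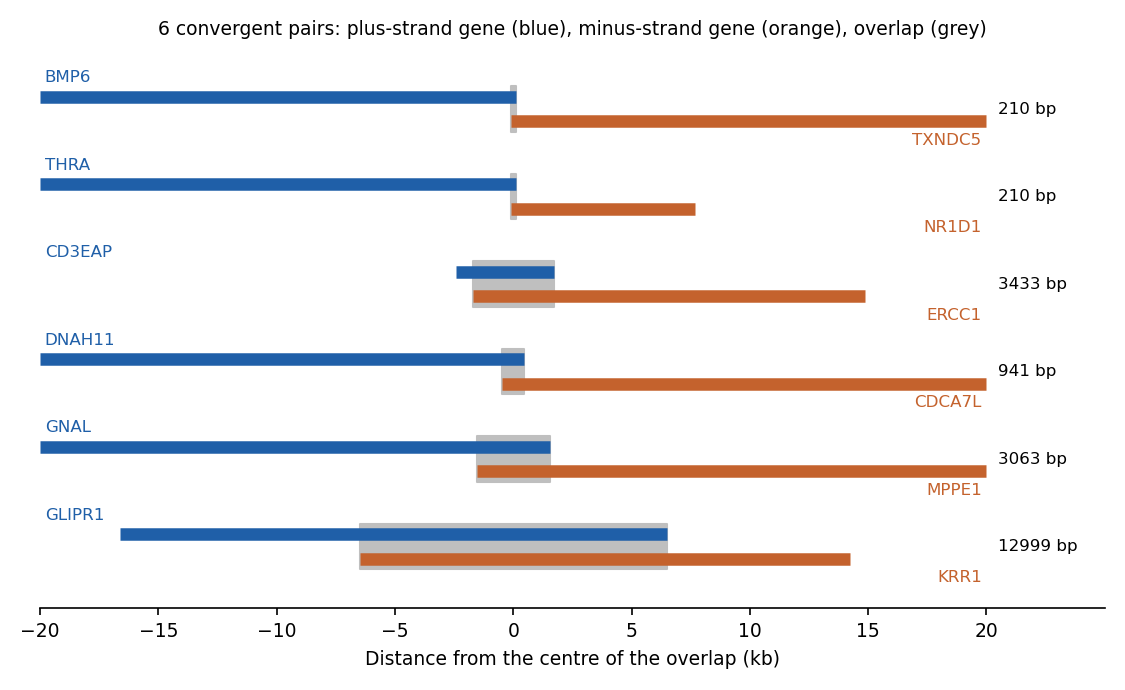
Spans of 6 convergent pairs in kb from the centre of their overlap, with the plus-strand gene in blue, the minus-strand gene in orange and the overlap in grey; bars that reach 20 kb on either side go on beyond the map. BMP6/TXNDC5 and THRA/NR1D1 overlapped by 210 bp, while the 12999 bp shared by GLIPR1 and KRR1 covered much of both genes.

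Of the 1315 members, 1001 (76.1%) had enough reads to be tested, against 61.7% of all 19414 listed genes. Both partners were tested in 376 pairs, 1 partner in 257 and neither in 30, and 75 members had no read. Tested members had a median of 38.4 CPM, against 33.8 for all tested genes. Per kb of exon, the stronger partner of a pair exceeded the weaker by a median of 3.24 times. The ratio was under 2 in 121 of the 376 pairs and over 10 in 85.

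Among the 200 pairs with a partner at 100 CPM or more, the other partner had no read in 11 and 1 to 10 reads over all 8 libraries in 29. PDIA3, a disulfide isomerase of the endoplasmic reticulum (ER), had 289.7 and 289 CPM under the WT label, 742 and 721 under Zab, 318 and 326 under MYC and 244 and 262 under MYC_Zab, while ELL3 was at 0 reads across a 657 bp overlap. EFTUD2, a core part of the spliceosome, had 9592 reads in all and HIGD1B had none over 188 bp. PLK1, a mitotic kinase, had 4645 reads opposite ERN2, at 0 with 58 bp shared. DDX39B, an RNA helicase, faced MCCD1 at 0 with 7 bp shared. RPL35, a ribosomal protein gene, faced WDR38 at 0 with 9 bp shared in 3 of 8 listings. Per the file headers 1 strand and only exons were counted, so reads of one partner were not shared with the other, and RNA beyond an annotated end was not seen.

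Other pairs had both partners well covered. ARPC1B/PDAP1, SRRD/TFIP11, CD3EAP/ERCC1 and RPL36/LONP1 were among the pairs with the highest level in their weaker partner, and CD3EAP/ERCC1 is described with the MYC libraries below.

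Between ADAR-high and ADAR-low libraries, 532 of the 1001 tested members passed an adjusted p of 0.05 in limma, against 53.3% of all tested genes (53.1% of members). There were 265 higher members (26.5%; 29.3% of all genes) and 267 lower (26.7%; 24.0%). The median change was 0.02 in members and 0.07 in all genes. On the scale as deposited the split was 407 higher to 171 lower, and with plain library totals 356 to 207. The median on the deposited scale was 0.20 in members and 0.25 in all genes, so both moved. Here and below, splits under other scales have no share of all genes beside them and are no result about members.

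Members are named here and below by the size of their change among those called, with at least 5 CPM and no overlap between the groups. The largest rises in ADAR-high libraries were in GLIPR1, CEP290, LCTL, LYPD1, DOP1A, ACSS3, DNAH11 and BBIP1. GLIPR1 had 42.8 and 34.7 CPM under the WT label, 14.1 and 22.5 under Zab, 4.13 and 6.92 under MYC and 48.5 and 45.7 under MYC_Zab. All 4 ADAR-high libraries lay above all 4 ADAR-low ones, and the MYC pair was lowest (log2 1.99 ± 0.19 (SE), adjusted p = 9.98e-10). CEP290, a centrosome and cilium protein, had 12.6 and 15.4 CPM under the WT label, 3.54 and 0 under Zab, 9.55 and 12.1 under MYC and 27.8 and 21.6 under MYC_Zab. Its lowest libraries were the Zab pair and its highest the MYC_Zab pair (log2 1.96 ± 0.32 (SE), adjusted p = 9.86e-06). BBIP1, a subunit of the cilium-associated BBSome, had 17.8 and 10.4 CPM under the WT label, 1.18 and 5.24 under Zab, 4.91 and 7.42 under MYC and 14 and 13.7 under MYC_Zab (log2 1.53 ± 0.30 (SE), adjusted p = 1.19e-04), and DNAH11, a dynein heavy chain of motile cilia, is described with its partner below. LCTL changed by 1.96 ± 0.30, LYPD1 by 1.92 ± 0.22, DOP1A by 1.69 ± 0.28 and ACSS3 by 1.67 ± 0.25 (log2 ± SE).

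The largest falls were in THRA, RAB3A, TUB, CCDC85C, CALML4, LRP3, PRXL2B and DTX4. CCDC85C had 71.9 and 74 CPM under the WT label, 193 and 187 under Zab, 192 and 229 under MYC and 67.2 and 70.00 under MYC_Zab. Its ADAR-low libraries, 187 CPM or more, lay far above the others and alike under both labels (log2 -1.48 ± 0.08 (SE), adjusted p = 1.86e-15). TUB had 23.3 and 15.7 CPM under the WT label, 31.2 and 29.9 under Zab, 129 and 138 under MYC and 27.5 and 19.6 under MYC_Zab, so its fall came mostly from the MYC pair (log2 -1.56 ± 0.14 (SE), adjusted p = 5.68e-10). RAB3A, a GTPase of secretory vesicles, changed by -1.64 ± 0.32, DTX4, a ubiquitin ligase, by -1.22 ± 0.12, LRP3 by -1.33 ± 0.15, PRXL2B by -1.26 ± 0.16 and CALML4 by -1.38 ± 0.26. In bulk libraries, fewer cells with an RNA and less RNA per cell cannot be told apart.

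Read as pairs, both partners were higher in 39 of 376 pairs. Of all 4910 pairs of neighbouring genes within 10 kb, termed neighbours here, 8.23% had both higher. Both were lower in 32 of the 376 pairs, against 10.8% of neighbours. Partners were called in opposite directions in 34, which is 9.04% of pairs against 7.78% of neighbours. Below, a percentage of neighbours is likewise the share of all neighbours with that result. The log2 changes of partners had a Pearson r of 0.25 over the 376 pairs and 0.31 over all neighbours, as a description, since all pairs come from the same 8 libraries. All neighbours include 532 overlapping same-strand pairs, with 0.94% opposite calls and an r of 0.69.

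By the smaller of the 2 changes, and with at least 5 CPM in both partners, pairs whose partners fell together were led by BMP6/TXNDC5 (hg19 chr6:7881752-7881961). BMP6, a growth factor of the TGF-beta family, had 18.8 and 13.6 CPM under the WT label, 34.8 and 22.5 under Zab, 34.9 and 37.8 under MYC and 11.9 and 15.4 under MYC_Zab. TXNDC5, a disulfide isomerase of the ER, had 229 and 236 CPM under the WT label, 517 and 477 under Zab, 509 and 544 under MYC and 226 and 221 under MYC_Zab. For both genes all 4 ADAR-low libraries lay above all 4 ADAR-high ones, although TXNDC5 was many times the stronger. BMP6 changed by -1.06 ± 0.18 (SE), adjusted p = 1.71e-05, and TXNDC5 by -1.16 ± 0.05 (SE), adjusted p = 8.90e-18. The balance of the pair, plus-strand minus minus-strand partner on the log2 scale, moved by 0.10 ± 0.18 (SE), adjusted p = 0.734.

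THRA, the thyroid hormone receptor alpha, and NR1D1, the circadian repressor REV-ERB alpha, form a classical antisense pair (hg19 chr17:38249046-38249255). THRA had 22.4 and 10.7 CPM under the WT label, 38.3 and 34.6 under Zab, 108 and 125 under MYC and 23.4 and 24.8 under MYC_Zab. NR1D1 had 33.7 and 35.8 CPM under the WT label, 56.6 and 64.4 under Zab, 94.5 and 85.6 under MYC and 43.1 and 34.3 under MYC_Zab. Both were highest in the MYC pair and next in the Zab pair. THRA changed by -1.70 ± 0.16 (SE), adjusted p = 9.95e-10, and NR1D1 by -0.99 ± 0.11 (SE), adjusted p = 2.71e-08. GPS1/DUS1L (COP9 signalosome and tRNA dihydrouridine synthase; -0.68 ± 0.06 and -1.08 ± 0.09), MPV17L2/RAB3A (-0.64 ± 0.18 and -1.64 ± 0.32) and PRELID1/MXD3 (-0.70 ± 0.05 and -0.57 ± 0.24) were the other pairs of this kind. The call of MXD3, a partner of MAX, was lost without either WT or MYC library, Zab replicate 2 or MYC_Zab replicate 2 (highest adjusted p = 0.205) and under 6 alternatives of scaling, filter, block, averaging or tool (0.0513 to 0.152), and PRELID1 kept its call.

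By the same measure, pairs whose partners rose together were led by CMC1/AZI2, although GLIPR1 and LCTL rose by more than either gene. CMC1, an assembly factor of cytochrome c oxidase, had 14.3 and 13.2 CPM under the WT label, 7.07 and 3.14 under Zab, 7.23 and 5.44 under MYC and 13.5 and 16.1 under MYC_Zab. AZI2, an adaptor of the kinase TBK1, had 15.2 and 15.4 CPM under the WT label, 5.89 and 4.19 under Zab, 7.23 and 7.67 under MYC and 14.3 and 14.1 under MYC_Zab. The 2 genes followed each other closely, with every ADAR-high library above every ADAR-low one. CMC1 changed by 1.23 ± 0.26 (SE), adjusted p = 2.31e-04, AZI2 by 1.15 ± 0.23 (SE), adjusted p = 1.74e-04. In GLIPR1/KRR1, KRR1, a ribosome biogenesis factor, had 24 and 23.2 CPM under the WT label, 3.54 and 6.28 under Zab, 25.8 and 26.2 under MYC and 27.8 and 24.3 under MYC_Zab. It was low only in the Zab pair, whereas GLIPR1 was lowest in the MYC pair, so different ADAR-low groups were lowest in the 2 partners (KRR1 1.05 ± 0.19 (SE), adjusted p = 5.48e-05). ZWILCH/LCTL (0.84 ± 0.12 and 1.96 ± 0.30), NSA2/FAM169A (1.13 ± 0.10 and 0.76 ± 0.22) and PCNX4/DHRS7 (0.88 ± 0.09 and 0.75 ± 0.14) completed the list.

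**Figure D2:**
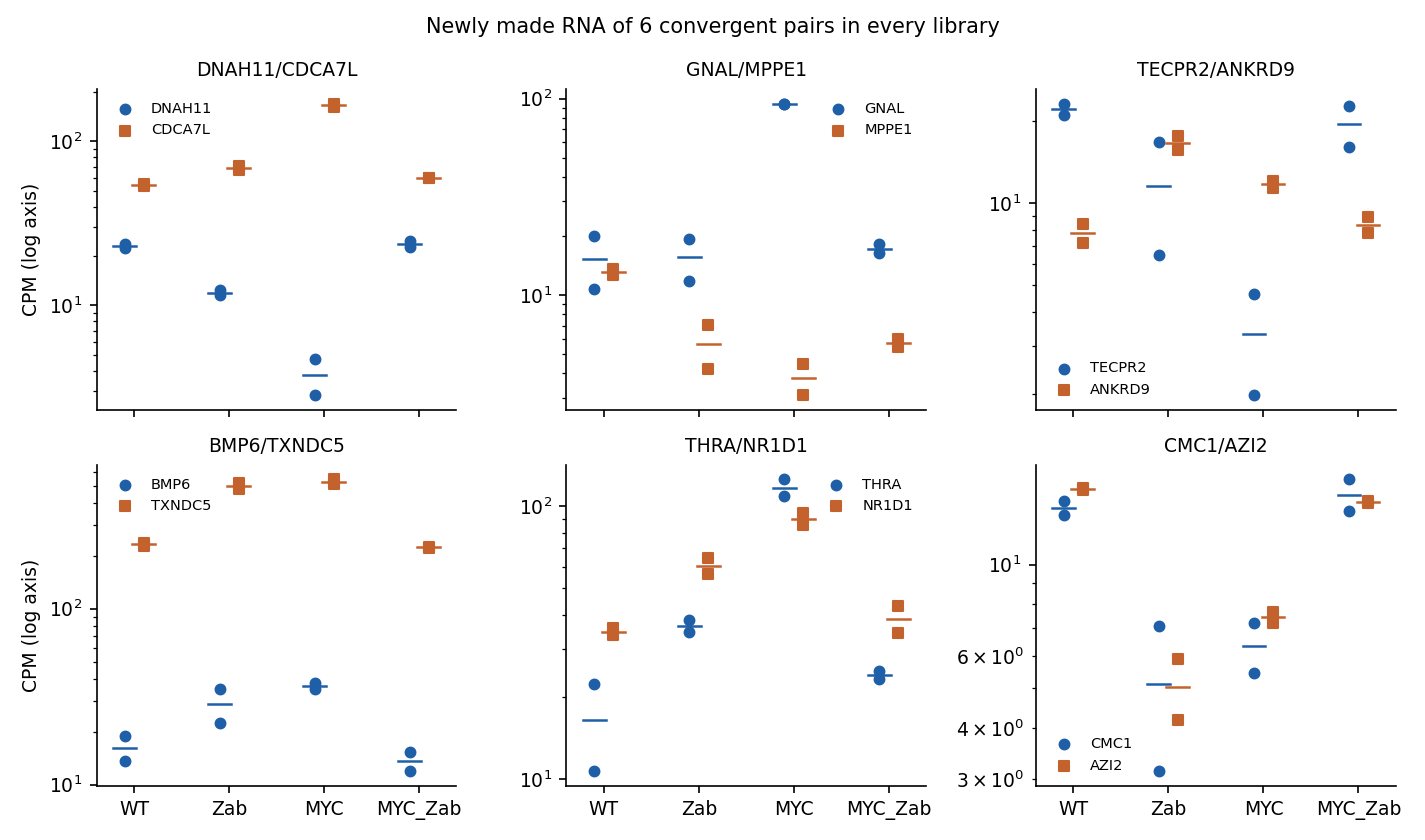
CPM on a log axis in each library of 6 convergent pairs, with circles for the plus-strand gene, squares for the minus-strand gene and bars at the mean of 2 libraries. The upper pairs have partners called in opposite directions between ADAR-high and ADAR-low libraries, and the lower pairs have partners called in the same direction.

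By that measure pairs with opposite partners were led by DNAH11/CDCA7L (hg19 chr7:21940517-21941457). DNAH11 had 23.7 and 22.5 CPM under the WT label, 12.4 and 11.5 under Zab, 2.84 and 4.70 under MYC and 24.7 and 22.8 under MYC_Zab. CDCA7L, a nuclear protein known to bind MYC, had 55.1 and 53.6 CPM under the WT label, 70.7 and 67 under Zab, 161 and 169 under MYC and 59.4 and 59.6 under MYC_Zab. DNAH11 was lowest in the MYC pair, where CDCA7L was highest, and the Zab pair moved the same way by less. DNAH11 changed by 1.65 ± 0.21 (SE), adjusted p = 2.58e-07, CDCA7L by -0.90 ± 0.09 (SE), adjusted p = 1.68e-09, and the balance by 2.54 ± 0.14 (SE), adjusted p = 3.53e-04.

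GNAL, the alpha subunit of the G protein Golf, had 10.7 and 20.02 CPM under the WT label, 11.8 and 19.4 under Zab, 93.5 and 94.5 under MYC and 18.2 and 16.4 under MYC_Zab. MPPE1, a phosphoesterase that trims GPI anchors (hg19 chr18:11882621-11885683), had 12.6 and 13.6 CPM under the WT label, 7.07 and 4.19 under Zab, 3.10 and 4.45 under MYC and 5.97 and 5.46 under MYC_Zab. GNAL was high in the MYC pair alone. The MYC_Zab and Zab libraries of MPPE1 overlapped, so that its higher mean in ADAR-high libraries rested on the WT pair. The balance moved by -2.03 ± 0.33 (SE), adjusted p = 0.0065. MPPE1 itself changed by 0.81 ± 0.28 (SE), adjusted p = 0.0155, a call lost without WT replicate 2, MYC replicate 1 or MYC_Zab replicate 1, in DESeq2, and with WT and MYC_Zab averaged (adjusted p = 0.0508 to 0.104).

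TECPR2, an autophagy protein, had 21.1 and 23.2 CPM under the WT label, 6.48 and 16.8 under Zab, 4.65 and 1.98 under MYC and 22.8 and 16.1 under MYC_Zab. ANKRD9 had 8.43 and 7.15 CPM under the WT label, 17.7 and 15.7 under Zab, 12.1 and 11.4 under MYC and 7.79 and 8.94 under MYC_Zab. The ANKRD9 libraries were above 11 CPM in Zab and MYC and under 9 CPM in the others, while 1 Zab library of TECPR2 exceeded 1 of MYC_Zab. The balance changed by 2.38 ± 0.37 (SE), adjusted p = 0.00544. DAAM2/MOCS1 (a formin and an enzyme of molybdenum cofactor synthesis) changed in balance by -1.83 ± 0.17 (SE), adjusted p = 0.00114. PPP1R12B/SYT2 (a myosin phosphatase subunit and a synaptotagmin) changed by 2.03 ± 0.35 (SE), adjusted p = 0.00776. The call of PPP1R12B itself was lost without WT, MYC or MYC_Zab replicate 1, in DESeq2, and with WT and MYC_Zab averaged (adjusted p = 0.0521 to 0.109).

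The balance was called in 131 of the 376 pairs (34.8%; 30.7% of neighbours). The share was 36.3% in convergent pairs with a gap and 4.70% in overlapping same-strand neighbours. TUB/RIC3 had a larger called change than the pairs described above (-3.00 ± 0.44), and is not among them because RIC3 averaged 3.76 CPM. Beyond these pairs, DMTF1/TMEM243 (1.69 ± 0.24) and CCNK/CCDC85C (1.67 ± 0.08) shifted to the plus strand. EPHX1/TMEM63A (-1.41 ± 0.27), GPR39/LYPD1 (-1.34 ± 0.18) and PCBP2/MAP3K12 (-1.26 ± 0.15) shifted to the minus strand. CCNK, cyclin K, ranged only from 82.2 to 116 CPM across a 12241 bp overlap with CCDC85C. Without WT replicate 2, MYC replicate 2 or MYC_Zab replicate 2, 86, 87 and 72 pairs were called. Averaging WT and MYC_Zab to 1 sample each left 14, and TECPR2/ANKRD9, GNAL/MPPE1, GPR39/LYPD1 and PCBP2/MAP3K12 then lost their calls (adjusted p = 0.0600 to 0.0888).

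Between the libraries labelled MYC and WT, 444 members were called (44.4%; 44.1% of all genes), 224 higher (22.2% of all genes) and 220 lower (21.9%), with a median change of -0.01 in members and in all genes. The deposited scale gave 490 higher to 76 lower. The largest rises were in THRA (2.83 ± 0.23), DAAM2 (2.79 ± 0.39), TUB (2.73 ± 0.20), GNAL (2.60 ± 0.26) and SYT2 (2.51 ± 0.44), and the largest falls in LYPD1 (-3.61 ± 0.31), GLIPR1 (-2.63 ± 0.27), TECPR2 (-2.50 ± 0.38), DNAH11 (-2.36 ± 0.30) and ALDH6A1 (-2.28 ± 0.26). DAAM2 had 4.54 and 3.93 CPM under the WT label, 3.54 and 2.09 under Zab, 36.1 and 34.1 under MYC and 4.15 and 2.73 under MYC_Zab. LYPD1 had 30.1 and 22.5 CPM under the WT label, 21.8 and 20.9 under Zab, 1.81 and 0.742 under MYC and 27.2 and 23.3 under MYC_Zab. In both genes the MYC pair stood alone and the other 3 groups lay close together.

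Both partners were higher in 14 pairs (6.27% of neighbours) and both lower in 20 (4.99% of neighbours). They were opposite in 34 (9.04% of pairs against 7.82% of neighbours). The r of the partners' changes was 0.04, against 0.16 over all neighbours. That r was 0.01 in convergent pairs with a gap and 0.81 in overlapping same-strand neighbours. Of pairs with both partners averaging at least 5 CPM, GNAL/MPPE1 (4.18 ± 0.47), DAAM2/MOCS1 (3.23 ± 0.23) and GPR39/LYPD1 (2.37 ± 0.25) moved most to the plus strand. TUB/RIC3, under that limit, had 3.72 ± 0.62. GPR39, a zinc-sensing receptor, fell by less than LYPD1 (-1.25 ± 0.23 against -3.61 ± 0.31). DNAH11/CDCA7L (-3.95 ± 0.20), TECPR2/ANKRD9 (-3.04 ± 0.52) and PSKH1/CTRL (-2.96 ± 0.57) moved most to the minus strand, the last losing its call without WT replicate 2 (adjusted p = 0.0619). With WT and MYC_Zab averaged, GNAL/MPPE1, TECPR2/ANKRD9 and PSKH1/CTRL lost theirs (adjusted p = 0.0538 to 0.125).

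CD3EAP, a subunit of RNA polymerase I, and ERCC1, a DNA repair nuclease subunit, share 3433 bp. CD3EAP had 99.5 and 109 CPM under the WT label, 179 and 190.1 under Zab, 217 and 237 under MYC and 83.8 and 93.6 under MYC_Zab. ERCC1 had 136 and 149 CPM under the WT label, 237 and 219 under Zab, 72.5 and 70.5 under MYC and 137 and 155 under MYC_Zab. Both were up in the Zab pair, while in the MYC pair CD3EAP was at its highest and ERCC1 at its lowest. Against WT the MYC change was 1.12 ± 0.10 (SE), adjusted p = 3.76e-10 for CD3EAP and -0.98 ± 0.10 (SE), adjusted p = 5.05e-09 for ERCC1.

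In all, 128 pairs had a called balance (34.0%; 30.5% of neighbours). The share was 36.9% in convergent pairs with a gap and 4.70% in overlapping same-strand neighbours. Without WT replicate 1, WT replicate 2, MYC replicate 1 or MYC replicate 2 the count was 77, 74, 69 and 77, and averaging WT and MYC_Zab to 1 sample each left 22.

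**Figure D3:**
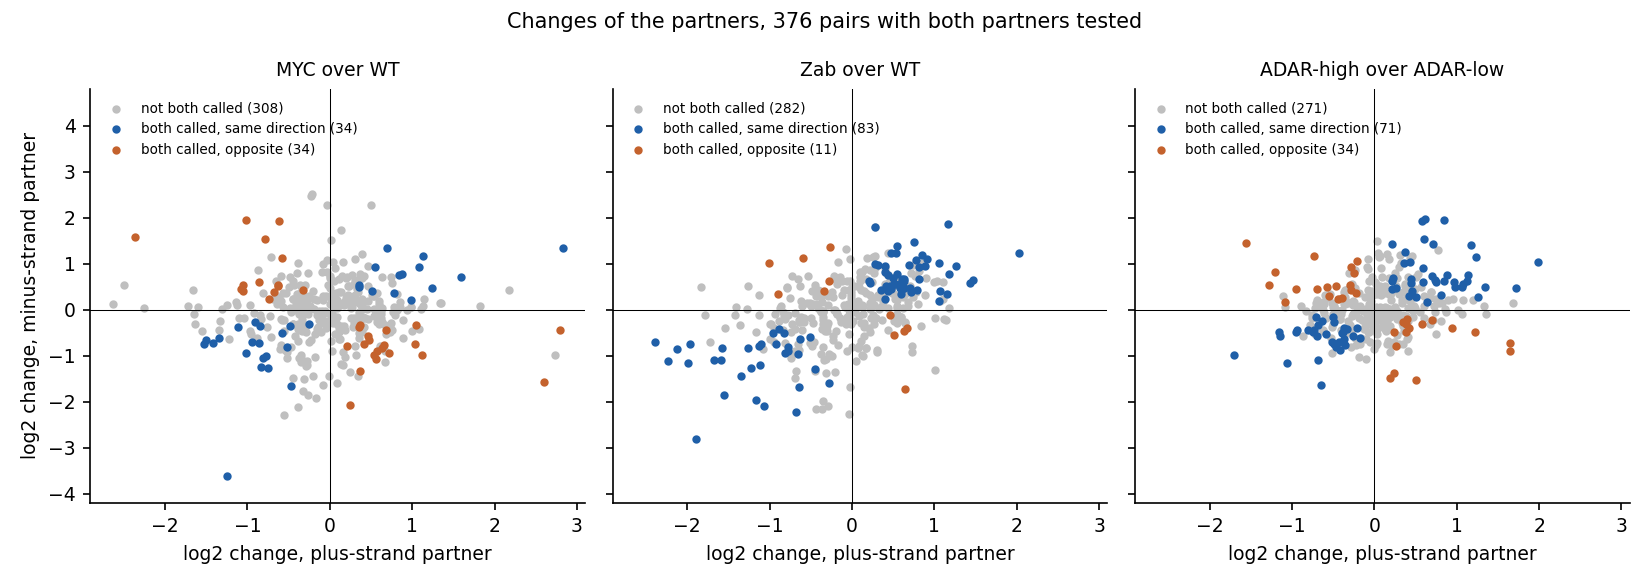
Log2 change of the minus-strand partner against that of the plus-strand partner in 376 convergent pairs, for MYC over WT, Zab over WT and ADAR-high over ADAR-low. Opposite calls (orange) numbered 34, 11 and 34, and calls in the same direction (blue) 34, 83 and 71.

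Between the libraries labelled Zab and WT, 507 members were called (50.6%; 49.6% of all genes), 284 higher (28.4%; 22.5%) and 223 lower (22.3%; 27.1%). The median change was 0.04 in members and -0.08 in all genes. With the deposited scale the split was 57 higher to 543 lower, and with library totals 193 to 304. Change went with gene span. In genes up to 5 kb the median was 0.41 in members and 0.34 in all genes, and over 60 kb it was -0.24 and -0.33. In ADAR-high over ADAR-low these medians were -0.15 and -0.17, and 0.26 and 0.25. In MYC over Zab they were -0.25 and -0.31, and 0.08 and 0.27, and in MYC_Zab over Zab -0.38 and -0.32, and 0.23 and 0.35. Members over 60 kb made up 19.98% of those tested, against 29.6% of all genes. The Zab libraries also had the fewest coding reads per tag, and the part of either in these calls was not tested.

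The largest rises were in SNX22, ZBTB46, DDIT3, GMPPB and SLC29A4. SNX22, a sorting nexin, had 9.40 and 13.2 CPM under the WT label, 48.9 and 48.2 under Zab, 9.04 and 14.6 under MYC and 11.7 and 13.9 under MYC_Zab. PPIB, a cyclophilin of the ER that overlaps it by 1667 bp, had 759 and 708 CPM under the WT label, 1760.2 and 1711 under Zab, 594 and 604 under MYC and 714 and 749.6 under MYC_Zab. Both were highest in the Zab pair, without overlap with any other library (SNX22 2.03 ± 0.28 (SE), adjusted p = 9.93e-07; PPIB 1.24 ± 0.05 (SE), adjusted p = 1.77e-18). DDIT3, the stress-response factor CHOP, had 10.4 and 9.30 CPM under the WT label, 34.2 and 39.3 under Zab, 9.04 and 5.93 under MYC and 12.5 and 8.19 under MYC_Zab. It rose by 1.80 ± 0.31 (SE), adjusted p = 2.37e-05, while its neighbour MARS1, a methionyl-tRNA synthetase, changed by 0.28 ± 0.06 (SE), adjusted p = 3.91e-04. GMPPB, an enzyme that makes GDP-mannose, rose by 1.79 ± 0.17 and its partner RNF123 had 0.28 ± 0.17, which did not pass the test.

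The largest falls were in CEP290, CCDC152, PHF3, EEA1 and CENPU. PHF3, which binds RNA polymerase II, had 164 and 162 CPM under the WT label, 35.4 and 22.5 under Zab, 148 and 171 under MYC and 177 and 197 under MYC_Zab. EEA1, a tether of early endosomes, had 27.2 and 30.03 CPM under the WT label, 4.13 and 6.28 under Zab, 28.9 and 18.3 under MYC and 49.8 and 47.4 under MYC_Zab. The Zab pair lay well below every other library in both (PHF3 -2.49 ± 0.14 (SE), adjusted p = 2.57e-14; EEA1 -2.28 ± 0.26 (SE), adjusted p = 4.22e-08). CEP290 fell with its partner C12orf29 (-2.81 ± 0.45 and -1.89 ± 0.31).

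Both partners were higher in 51 pairs (13.4% of neighbours) and both lower in 32 (8.33% of neighbours). They were opposite in 11 (2.93% of pairs against 3.54% of neighbours), with r = 0.49 against 0.47 over all neighbours. The balance was called in 64 pairs (17.0%; 18.2% of neighbours). Of these, CEBPZOS/CEBPZ shifted to the plus strand by 1.54 ± 0.20 (SE), adjusted p = 0.00698, a call lost with WT and MYC_Zab averaged (0.12). CEBPZ, a nucleolar protein, had 78.4 and 76.2 CPM under the WT label, 15.3 and 16.2 under Zab, 87.8 and 106 under MYC and 100.2 and 91.3 under MYC_Zab. CEBPZOS had 29.2 and 24 CPM under the WT label, 17.7 and 14.7 under Zab, 37.4 and 39.1 under MYC and 28.5 and 32.5 under MYC_Zab, so both fell in Zab and CEBPZ by more. Without WT replicate 1 the count was 10, without WT replicate 2 it was 17, without MYC_Zab replicate 1 or 2 it was 40 and 39, and averaging WT and MYC_Zab to 1 sample each left 0.

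Between the libraries labelled MYC and Zab, 525 members were called (52.4%; 56.5% of all genes), 246 higher (30.6% of all genes) and 279 lower (25.9%), with medians of -0.04 in members and 0.08 in all genes. The deposited scale gave 740 higher to 39 lower, and library totals 309 to 236. CDKL1, a kinase gene, had 7.45 and 9.65 CPM under the WT label, 3.54 and 0 under Zab, 49.1 and 54.2 under MYC and 10.4 and 10.4 under MYC_Zab. It was the largest rise (4.62 ± 0.45 (SE), adjusted p = 1.03e-09), being at its highest in MYC and its lowest in Zab. WIPI1, an autophagy protein, had 27.5 and 27.9 CPM under the WT label, 60.1 and 57.1 under Zab, 7.74 and 6.43 under MYC and 18.2 and 19.4 under MYC_Zab. Its order was the reverse (-2.89 ± 0.23 (SE), adjusted p = 2.84e-11). CCDC152 (3.41 ± 0.41), DAAM2 (3.27 ± 0.39), GNAL (2.56 ± 0.26) and CEBPZ (2.54 ± 0.15) were the other leading rises. LYPD1 (-3.34 ± 0.31), CHPF2 (-2.49 ± 0.38), FCHSD1 (-2.26 ± 0.44) and ARHGEF40 (-2.23 ± 0.17) were the other leading falls.

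Both partners were higher in 33 pairs (9.47% of neighbours) and both lower in 44 (18.4% of neighbours). They were opposite in 19 (5.05% of pairs against 7.84% of neighbours). Overlapping same-strand pairs made up 262 of the 902 neighbour pairs with both lower. The balance was called in 141 pairs (37.5%; 34.9% of neighbours), led by DMAC2L/CDKL1 (-4.48 ± 0.65 (SE), adjusted p = 0.00326) and GLIPR1/KRR1 (-3.80 ± 0.23 (SE), adjusted p = 2.44e-04). GLIPR1 was lower and KRR1 higher in MYC than in Zab. Without MYC replicate 1 or 2, 88 and 93 balances were called.

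The libraries labelled MYC_Zab differed from those labelled WT in 1 member, TPR, a nuclear pore basket protein (0.576% of all genes were called, 0.134% higher and 0.442% lower). TPR had 103 and 105 CPM under the WT label, 22.4 and 24.1 under Zab, 99.4 and 95.4 under MYC and 161 and 158 under MYC_Zab. It was higher in both MYC_Zab libraries than in WT (0.61 ± 0.12 (SE), adjusted p = 0.0105), a call lost without either WT or either MYC_Zab library (adjusted p = 0.141 to 0.263), with no filter (0.0522) and with WT and MYC_Zab averaged (1). At an unadjusted p under 0.05, limma gave 77 members (7.69% of those tested), edgeR 97 (9.69%) and DESeq2 50 (4.995%). No share of all genes is given for these counts, so they are no result about members. After adjustment edgeR and DESeq2 each called 5 members, which included TPR in edgeR but not in DESeq2, where TPR had no adjusted p. In no pair were both partners called, against 0.0815% of neighbours with both lower and 0.0204% with opposite calls. No pair balance was called in this comparison (0.0% of neighbours) by limma, with 24 of 376 (6.38%) at an unadjusted p under 0.05. The share of neighbours at that unadjusted level is not given.

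Against MYC, the MYC_Zab libraries had 223 higher and 231 lower members (45.4% called; of all genes 44.6%, 22% higher and 22.5% lower). Against Zab they had 216 higher and 277 lower (49.3%; of all genes 49.5%, 26.8% higher and 22.6% lower). The deposited scale gave 140 to 330 and 737 to 16, and library totals 276 to 181 and 296 to 175. These comparisons share libraries with the ones above. LYPD1 (3.57 ± 0.31), GLIPR1 (2.91 ± 0.27) and FCHSD1 (2.42 ± 0.44) were highest over MYC. DAAM2 (-3.04 ± 0.39), SYT2 (-2.96 ± 0.44) and TUB (-2.47 ± 0.20) were lowest. Over Zab, CEP290 (3.58 ± 0.45), CCDC152 (3.42 ± 0.41) and EEA1 (3.02 ± 0.26) rose, and SNX22 (-1.85 ± 0.28), DDIT3 (-1.76 ± 0.31) and WIPI1 (-1.59 ± 0.23) fell.

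Over MYC, both partners were higher in 16 pairs (5.17% of neighbours) and both lower in 11 (6.21% of neighbours). They were opposite in 37 (9.84% of pairs against 8.02% of neighbours). Over Zab, both were higher in 32 (8.39% of neighbours) and both lower in 47 (15.8% of neighbours). They were opposite in 7 (1.86% of pairs against 3.79% of neighbours). Overlapping same-strand pairs made up 175 of the 777 neighbour pairs with both lower over Zab. The balance was called in 138 and 66 pairs (36.7% and 17.6%; 31.5% and 18.6% of neighbours). Without MYC replicate 1, MYC replicate 2, MYC_Zab replicate 1 or MYC_Zab replicate 2, 71, 80, 71 and 70 were called over MYC. Without MYC_Zab replicate 1 or 2, 15 and 12 were called over Zab.

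Pairs were also set beside other arrangements of neighbours within 10 kb. In ADAR-high over ADAR-low, partners were called in opposite directions in 9.04% of the 376 overlapping convergent pairs. The share was 9.69% of 1114 convergent pairs with a gap, 7.42% of 1065 divergent pairs with a gap and 4.88% of 82 overlapping divergent pairs. Called balances followed the same order, with 34.8%, 36.3%, 31.4% and 24.4%. In Zab over WT the opposite shares were 2.93%, 4.85%, 3.10% and 1.22%. Same-strand pairs with a gap (1692) had 8.87% opposite calls and 34.1% called balances in ADAR-high over ADAR-low. Overlapping same-strand pairs (532) had only 0.94% and 4.70%, and they lower the shares given above over all neighbours. The differences between arrangements were not tested, and overlapping convergent pairs lay within the range of the others.

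**Figure D4:**
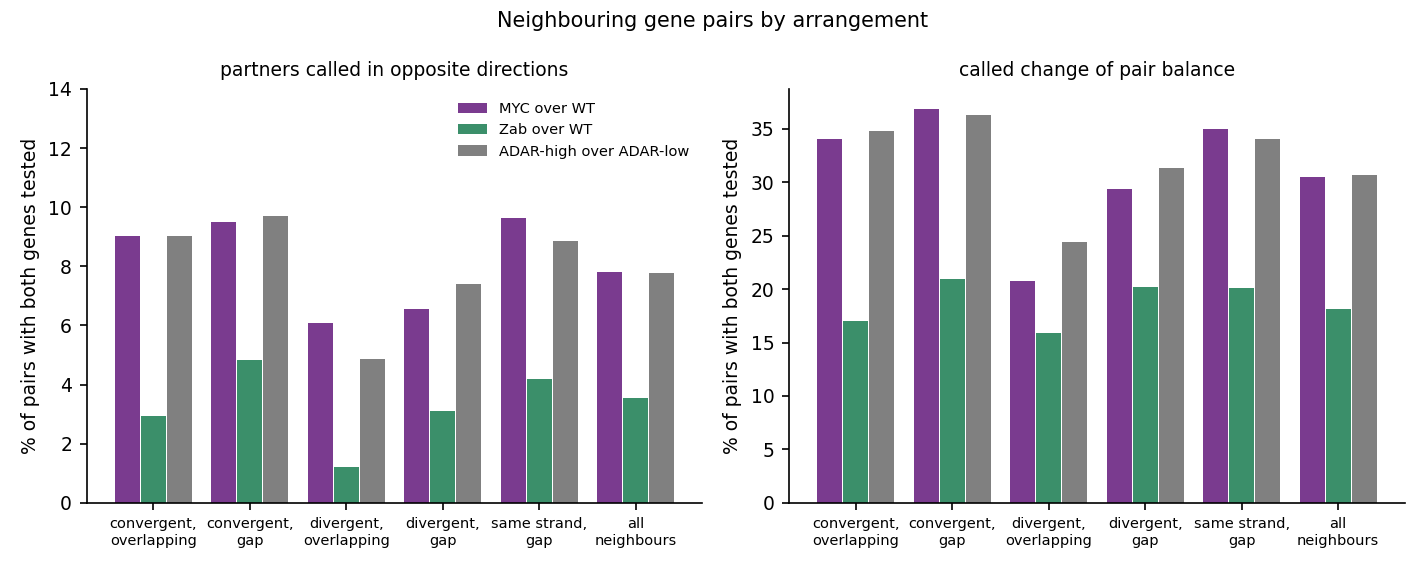
Share of neighbouring gene pairs with both genes tested whose partners were called in opposite directions (left) or whose balance was called (right), by arrangement and comparison. Overlapping convergent pairs, the leftmost group, reach 9.04% opposite calls and 34.8% called balances in ADAR-high over ADAR-low. Overlapping same-strand pairs and nested pairs are not drawn but are part of all neighbours.

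Length of overlap was described in 3 classes, under 100 bp (95 pairs with both partners tested), from there to just under 1 kb (145) and 1 kb or more (136). Members called between ADAR-high and ADAR-low libraries made up 51.1%, 51.4% and 53.7%, and opposite pairs 10.53%, 8.28% and 8.82%. The r of partners' changes was -0.0028, 0.20 and 0.38 in these classes, and in Zab over WT it was 0.31, 0.48 and 0.57. It was -0.10, 0.021 and 0.14 in MYC over WT, and 0.23, 0.20 and 0.28 in MYC over Zab. MYC_Zab had -0.083, -0.030 and 0.054 over MYC, and 0.23, 0.42 and 0.52 over Zab. In MYC_Zab over WT the order was reversed, with 0.23, 0.075 and -0.085. These r values have no test, and partners share libraries.

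Genes of 2 lists bear on overlapping RNAs. Of 24 tested genes that edit, sense or process double-stranded RNA, with ADAR left out, 8 were higher and 10 lower in ADAR-high libraries, with a median of -0.19 against 0.07 for all genes. Of 31 tested genes for cleavage, polyadenylation and termination, 8 were higher and 11 lower, with a median of -0.04. The shares over all genes were 29.3% and 24.0%. The lists had, in MYC over WT, 4 higher and 6 lower (median 0.00) and 11 higher and 4 lower (median 0.18), beside shares of 22.2% and 21.9%. In Zab over WT they had 8 and 8 (median -0.03) and 9 and 10 (median -0.15), beside 22.5% and 27.1%. No difference of a list from all genes was tested. EIF2AK2, the kinase PKR that senses double-stranded RNA, itself overlaps GPATCH11 by 35 bp. EIF2AK2 had 99.2 and 98.3 CPM under the WT label, 54.8 and 54.5 under Zab, 85.5 and 95.9 under MYC and 97.8 and 101 under MYC_Zab. GPATCH11 had 27.2 and 29 CPM under the WT label, 11.8 and 10.5 under Zab, 14.7 and 15.6 under MYC and 26 and 31.5 under MYC_Zab. Both were lowest in the Zab pair, and GPATCH11 was also low in MYC (ADAR-high over ADAR-low: EIF2AK2 0.49 ± 0.09 (SE), adjusted p = 2.53e-05; GPATCH11 1.07 ± 0.17 (SE), adjusted p = 9.82e-06). ILF2, a subunit of a double-stranded RNA-binding complex, overlaps SNAPIN by 65 bp and changed by -0.22 ± 0.05 (SE), adjusted p = 3.89e-04. FIP1L1, a polyadenylation factor, overlaps LNX1 by 1562 bp and had 0.03 ± 0.08 (SE), adjusted p = 0.748, which did not pass.

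A promoter was matched to 1077 of the 1315 members. CACGTG stood in 24 of 179 members higher in MYC over WT (13.4%), 15 of 187 lower (8.02%) and 42 of 471 not called (8.92%), and over all tested genes in 11.99%, 6.93% and 8.96%. CGCGCG stood in 33%, 22.99% and 23.99% of the same members and in 30.5%, 22.04% and 24.2% of all genes. In Zab over WT the CGCGCG shares were 25.8%, 27.2% and 24.9% of members and 27.7%, 23.9% and 24.7% of all genes. The CACGTG shares there were 12.3%, 8.15% and 8.87% of members and 10.2%, 9.38% and 8.63% of all genes. In ADAR-high over ADAR-low, CACGTG stood in 5.83%, 12.7% and 10.2% of members and 7.91%, 11.2% and 8.95% of all genes. CGCGCG there stood in 27.8%, 29.7% and 22.4% of members and 22.4%, 30.2% and 24.3% of all genes. No difference between these shares was tested.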

How the data were processed

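The 8 deposited tables hold, per the file headers, a sense-strand signal per coding gene, counted over exons by HOMER on hg19 RefSeq with 1 transcript per gene. Per the submitters' processing notes, Trim Galore 0.6.6, STAR, SAMtools 1.11, bedtools 2.29.2 and the builds hg19 and dm6 were used, with roles not given in the sources used here. The deposited signal is whole reads times 1 factor per library, of unstated basis. Dividing by it gave whole reads within 0.02 for 99.95 to 100% of values. Most low values were even (77.2 to 82.7% of those from 1 to 20), so counting precision is below that of independent reads.

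The deposited values of all 19414 listed genes were scaled by TMM. Genes whose recovered reads passed edgeR's filterByExpr (4.0.16, minimum 10; 11985 genes) were then kept. They were tested as log2(CPM + 1), with fold changes on that scale, by limma 3.58.1 with trend in R 4.3.3, over all 8 libraries with 1 term per group. P-values were Benjamini-Hochberg adjusted over all genes, and called means an adjusted p under 0.05. The pseudocount understates changes of low genes. Pair balance was tested likewise over 4910 neighbour pairs. ADAR was left out of ADAR-high over ADAR-low, whose groups were named from its level. Alternatives were tried as listed in the closing section. On the recovered reads edgeR's quasi-likelihood test called 541 members in ADAR-high over ADAR-low, 480 in MYC over WT, 532 in MYC over Zab, 504 in Zab over WT, 5 in MYC_Zab over WT, 502 over Zab and 515 over MYC. DESeq2 1.42.0 called 445, 372, 453, 419, 5, 413 and 398 in the same order.

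On simulated data for MYC over WT (11870 genes, 200 changed, from those above 40 mean reads), 80% of 2-fold and 46% of 1.41-fold changes were recovered and 0.0171% of unchanged genes called. Of 4853 simulated pairs, 46.9% of those with a 2-fold change of balance were recovered and 0% of unchanged ones called. The simulation gave all genes 1 shared value of the spread and changed few of them, whereas 44.1% of genes were called in the data. These rates therefore need not hold for the data.

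The pairs and gene lists were chosen with earlier results of these data known. Named genes are MYC, ADAR and the members of pairs with the longest, shortest and best-covered overlaps or a partner at 0. To these come called members of at least 5 CPM whose groups do not overlap, and pairs of at least 5 CPM, ranked by the size of the change. Partners and members of the lists are named beside them, and chromosome 8 members are not. The result of 1 pair that this rule names is not reported here.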

Additional observations from a re-analysis of the deposited data

Results flagged for a closer look

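The effect that goes with the Zab label differed with the MYC label. The difference, MYC_Zab over MYC minus Zab over WT, is the interaction tested in limma, and it passed in 532 members (53.1%; 53.3% of all genes) and in the balance of 131 member pairs (34.8%; 30.7% of neighbours). Its values are the ADAR-high over ADAR-low changes times 2, so these are the same calls seen as a difference between effects.

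The interaction was positive on the log2 scale in GLIPR1 (3.98), CEP290 (3.93), LCTL (3.92), LYPD1 (3.84), DOP1A (3.37), ACSS3 (3.34), DNAH11 (3.30) and BBIP1 (3.06). It was negative in THRA (-3.40), RAB3A (-3.28), TUB (-3.11), CCDC85C (-2.97), CALML4 (-2.76), LRP3 (-2.66), PRXL2B (-2.52) and DTX4 (-2.44). For the pair balance it was positive in DNAH11/CDCA7L (5.09), TECPR2/ANKRD9 (4.77), PPP1R12B/SYT2 (4.05), DMTF1/TMEM243 (3.39) and CCNK/CCDC85C (3.35), and negative in GNAL/MPPE1 (-4.05), DAAM2/MOCS1 (-3.66), EPHX1/TMEM63A (-2.82), GPR39/LYPD1 (-2.67) and PCBP2/MAP3K12 (-2.52). MYC itself was at the WT level in the libraries labelled MYC_Zab, and the part of this in the interaction was not tested.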

How the results depend on the processing

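The 84 called changes of named genes and 40 called balances of named pairs kept their direction under every alternative. The balance of BMP6/TXNDC5, which was not called, ranged from -0.03 to 0.24 in ADAR-high over ADAR-low. Under these, 1736 values also kept their side of the threshold and 87 lost the call. Member counts stayed within 1.5 times of the reported ones under the alternatives, apart from the following. With the WT and MYC_Zab pairs each averaged to 1 sample, 289 members were called in MYC over WT, 285 in MYC_Zab over MYC and 0 in MYC_Zab over WT. Called balances were then 14 in ADAR-high over ADAR-low, 22 in MYC over WT, 89 in MYC over Zab, 21 in MYC_Zab over MYC, and 0 over Zab and in Zab over WT. Keeping only members with 1 transcript in all listings left 531 genes and 110 pairs to test. It gave 300 members and 41 balances in ADAR-high over ADAR-low, 251 and 40 in MYC over WT, 296 and 39 in MYC over Zab, 283 and 21 in Zab over WT, 259 and 42 in MYC_Zab over MYC, and 275 and 19 over Zab. The deposited scale gave 753 members in MYC_Zab over Zab, and 174 in MYC_Zab over WT. In the last comparison, library totals gave 2, no filter 0, a pseudocount of 5 CPM 3, edgeR 5 and DESeq2 5.

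Leaving out 1 library at a time gave 72 to 131 called balances in ADAR-high over ADAR-low, 69 to 152 in MYC over WT, 88 to 136 in MYC over Zab, 10 to 54 in Zab over WT, 70 to 158 in MYC_Zab over MYC and 12 to 55 over Zab. It gave 0 to 6 members in MYC_Zab over WT. Causes were not tested, beyond the smaller numbers of samples or genes. Deviations of same-numbered libraries correlated at -0.026 to 0.0099, so these libraries showed no shared shift. This cannot tell whether they were prepared together. With the replicate block, 2 members were called in MYC_Zab over WT and 527 in ADAR-high over ADAR-low. Scaling shifted the median of all genes by 1.04 in MYC over Zab and -0.56 in Zab over WT on the deposited scale. Depth limits genes of a few CPM, whose calls rest on few reads.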
